A study of Mus musculus with 3 samples.

Results

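Interferon response genes are the genes that cells switch on when interferon, a signal of viral infection or damage, reaches them. A list of 33 such genes was followed in single heart cells of mice with a heart muscle disease mutation. The list holds type I interferon targets, the transcription factors that drive them and a few GTPases, and its members were taken by name; 31 of the 33 had a row among the 32285 genes of the count matrices, and Mx1 and Mx2 were not analysed here. The hearts came from male C57/B6J mice of 3 genotypes: Myh6-R404Q, a point mutation in the alpha myosin heavy chain of heart muscle, Prkag2-p.R299Q, a point mutation in a regulatory subunit of the energy sensor AMPK, and wild type (WT). There was 1 library per genotype, made from collagenase-dissociated total heart cells, and neither age nor the number of animals per library was given in the sources used here. With 1 library per genotype there was no replicate and no test between genotypes. Every interval below is a 95% counting interval, which covers counting error only and not the spread between mice.

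Type I interferons bind a receptor made of Ifnar1 and Ifnar2 and act through the kinases Jak1 and Tyk2. These activate Stat proteins, among them Stat2, which joins Irf9 in the complex ISGF3, and ISGF3 binds a DNA element called the interferon-stimulated response element (ISRE). Interferon gamma uses another receptor and acts through another element, the gamma-activated site (GAS). In uninfected tissue many of these genes stay on at a low, tonic level, and the genes that respond include sensors of viral RNA, proteins that block viral RNA or protein synthesis, and brakes on the pathway itself.

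Promoters were looked at first, since they show how the list relates to the pathway. Of the 33 genes, 24 had a promoter in the RefSeq table for GRCm38.p6, taken from 250 bases before to 50 bases after the transcription start. Some genes had more than 1 promoter, and a gene was counted if any of its promoters matched. The ISRE core, searched on both strands, stood in the promoters of 14 of the 24 genes (58.3%). Counted by promoter it stood in 15 of 28, against 3.44% of all 32851 promoters in the table. The GAS core, searched on both strands, stood in 6 of the 24 genes (25%) and in 6 of the 28 promoters, against 8.30% of all promoters. The 14 genes with an ISRE core were Bst2, Ddx60, Eif2ak2, Gbp2, Gbp3, Gbp7, Ifih1, Ifit1, Ifit3, Igtp, Isg15, Rsad2, Stat2 and Trim30a. No such match was found in this window for Dtx3l, Ifi35, Ifi44, Ifit2, Irf7, Irf9, Lgals3bp, Oasl2, Samd9l or Xaf1, which says only that these letters were not there. A match describes the sequence and does not show that a factor binds.

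The 250 bases before the start are shown for 5 genes that recur in the mesothelial results below, with ISRE core matches in capitals. They are Ifit1 (chr19:34640639-34640888, plus strand), Ifit3 (chr19:34583279-34583528, plus strand), Isg15 (chr4:156200819-156201068, minus strand), Rsad2 (chr12:26456453-26456702, minus strand) and Gbp2 (chr3:142620413-142620662, plus strand), all on GRCm38, the assembly also called mm10. Isg15 carried 3 overlapping matches in 1 run, Ifit1 and Ifit3 carried 2 separate ones each, and Rsad2 and Gbp2 carried 1. The matches began between 156 bases (Ifit3) and 59 bases (Gbp2) before the start.
Ifit1: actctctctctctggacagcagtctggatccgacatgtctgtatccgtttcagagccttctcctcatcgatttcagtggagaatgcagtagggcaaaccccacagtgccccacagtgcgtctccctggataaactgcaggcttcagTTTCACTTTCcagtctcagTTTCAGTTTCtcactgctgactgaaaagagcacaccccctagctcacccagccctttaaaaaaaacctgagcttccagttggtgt
Ifit3: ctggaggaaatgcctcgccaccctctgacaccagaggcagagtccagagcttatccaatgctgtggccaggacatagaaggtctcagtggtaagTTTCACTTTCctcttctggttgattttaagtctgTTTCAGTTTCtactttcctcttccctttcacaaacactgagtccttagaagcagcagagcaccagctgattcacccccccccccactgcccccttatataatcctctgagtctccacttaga
Isg15: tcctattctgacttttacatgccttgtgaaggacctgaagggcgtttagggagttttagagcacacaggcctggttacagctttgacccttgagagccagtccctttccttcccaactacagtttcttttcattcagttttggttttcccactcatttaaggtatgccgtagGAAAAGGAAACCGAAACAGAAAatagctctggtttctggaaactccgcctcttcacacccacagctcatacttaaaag
Rsad2: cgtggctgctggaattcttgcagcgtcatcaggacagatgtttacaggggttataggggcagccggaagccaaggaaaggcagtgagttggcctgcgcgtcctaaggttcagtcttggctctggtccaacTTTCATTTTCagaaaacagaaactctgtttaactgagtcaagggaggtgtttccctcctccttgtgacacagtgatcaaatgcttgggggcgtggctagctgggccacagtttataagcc
Gbp2: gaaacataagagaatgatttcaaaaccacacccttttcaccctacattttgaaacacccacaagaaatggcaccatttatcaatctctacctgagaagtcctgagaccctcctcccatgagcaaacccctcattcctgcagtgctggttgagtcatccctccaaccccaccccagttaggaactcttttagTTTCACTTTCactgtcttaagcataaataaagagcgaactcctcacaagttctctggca

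The data comprised 10555 Myh6-R404Q, 6840 Prkag2-p.R299Q and 14831 WT cells after filtering, with a median of 1851, 2344 and 1413 UMIs per cell in that order; a UMI marks 1 captured RNA molecule. Cells fell into 20 clusters, named from marker genes without using the interferon genes themselves, and 8 classes with at least 200 cells in every library were compared between genotypes. These were the mesothelial, macrophage, capillary endothelial, endocardial, lymphatic endothelial, fibroblast, pericyte and cardiomyocyte classes. Levels are UMIs of a gene scaled to a common total per class and library (CPM), so a lower CPM can come from fewer molecules of a gene or from more of all others, which cannot be told apart. The matrix labelled Myh6-R404Q also held the cells of the other libraries under suffixes 1 and 2, with 0 entries that differed, so only its 12662 barcodes of suffix 3 were used. That suffix 3 is the Myh6-R404Q library rests on elimination. Counts come from the 3′ end of transcripts, so each gene is compared with itself across cell types and never with other genes. Muscle RNA was found outside muscle cells: 14 sarcomere genes summed to 7646 CPM in Myh6-R404Q, 6636 CPM in Prkag2-p.R299Q and 10110 CPM in WT mesothelial cells. Cell barcode sequences shared between libraries numbered 51 for Myh6-R404Q and WT, 28 for Prkag2-p.R299Q and WT, and 34 for Prkag2-p.R299Q and Myh6-R404Q.

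The list stood highest in the mesothelium, the single-cell sheet that covers the heart, and lowest in heart muscle cells. Summed over the 31 genes, the mesothelial class held 2136 ± 232 CPM (SD over the 3 libraries, 1 of each genotype), the macrophages 1828 ± 87.9 and the capillary endothelium 1737 ± 112. Endocardial cells held 1334 ± 94.1, lymphatic endothelium 1288 ± 126, fibroblasts 1018 ± 76.3 and pericytes 755 ± 31.8 CPM. Cardiomyocytes held 241 ± 28.4 CPM. The mesothelial libraries, from 1876 to 2321 CPM, overlapped those of the macrophages, from 1756 to 1926 CPM, across genotypes. Within each library the mesothelial sum was higher: 2211 against 1756 CPM in Myh6-R404Q, 2321 against 1926 in Prkag2-p.R299Q and 1876 against 1802 in WT. In WT the intervals overlapped (1809 to 1944 and 1746 to 1859 CPM). The order of macrophages and capillary cells, and of endocardial and lymphatic cells, differed between libraries. Fibroblasts, pericytes and cardiomyocytes stood apart from each other and from the classes above them in every library. Among the smaller classes the mean ran from 575 CPM in smooth muscle to 1595 CPM in mixed myeloid cells. Most of the mesothelial lead came from Oasl2. Without that gene the mesothelial sum was still first on average, at 1794 ± 189 CPM, and the macrophage sum was 1758 ± 81.6 CPM. In WT the mesothelial sum was then the lower one, at 1584 against 1731 CPM.

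**Figure D1:**
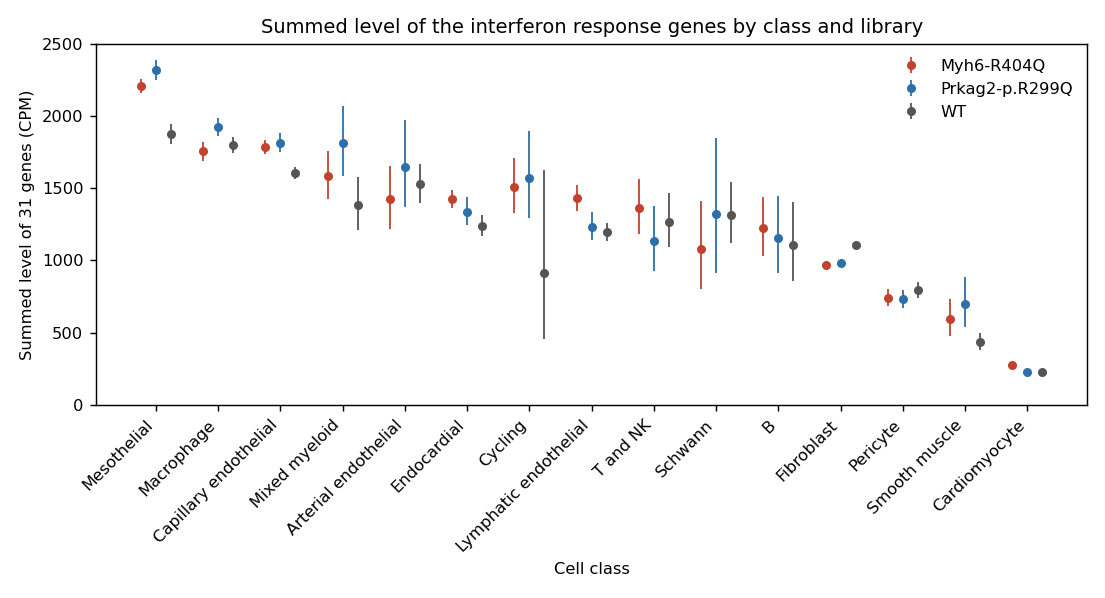
Summed level of the 31 measured interferon response genes (CPM, linear axis from 0) in each cell class. Each point is 1 library, with its exact Poisson 95% interval, Myh6-R404Q first, then Prkag2-p.R299Q and WT. The mesothelial points lie between 1876 and 2321 CPM and the cardiomyocyte points between 223 and 273 CPM.

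Among the transcription factors, Stat2 was spread widely. It stood at 116 CPM in Myh6-R404Q, 132 CPM in Prkag2-p.R299Q and 123 CPM in WT capillary cells, and at 102, 113 and 107 CPM in mesothelial cells in the same order, with a mean of 15.5 CPM in cardiomyocytes. Irf9, its DNA-binding partner in ISGF3, was highest in macrophages, at 46.1 CPM in Myh6-R404Q, 63.8 CPM in Prkag2-p.R299Q and 66.4 CPM in WT. Irf7, which amplifies interferon production once induced, stayed low: its class means were at most 20.7 CPM, in mixed myeloid cells, and 1.22 CPM in cardiomyocytes.

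The sensors of viral RNA differed in where they stood highest. Ddx60, a helicase that aids RNA sensing, had 258 CPM in Myh6-R404Q, 342 CPM in Prkag2-p.R299Q and 260 CPM in WT macrophages, against 187, 158 and 175 CPM in mesothelial cells. Eif2ak2 encodes PKR, the kinase that stops translation on double-stranded RNA, and averaged 79.8 CPM in macrophages and 74.5 in mesothelial cells. Ifih1 encodes MDA5, a sensor of long double-stranded RNA. It averaged 80.1 CPM in mesothelial cells, 71.0 in capillary cells, 67.5 in macrophages and 82.5 in the small arterial class. Zbp1, a sensor of Z-form nucleic acid, averaged at most 15.7 CPM, in T and NK cells, and 8.13 CPM in macrophages.

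Of the antiviral effectors, Oasl2 stood far higher in one class than in the others. Oasl2, an interferon-induced member of the oligoadenylate synthetase family (chromosome 5, 114896936 to 114912234, plus strand, GENCODE annotation of mm10), had 365 CPM in Myh6-R404Q, 369 CPM in Prkag2-p.R299Q and 292 CPM in WT mesothelial cells. In macrophages it had 62.7, 75.9 and 70.1 CPM, and in capillary cells 54.7, 62.1 and 42.8 CPM, in the same order of genotypes. All 3 mesothelial libraries were thus far above all libraries of the other compared classes. The mesothelial Oasl2 UMIs came from 661 of 1309 cells in Myh6-R404Q, 303 of 535 in Prkag2-p.R299Q and 295 of 783 in WT, so they were not the product of a few cells.

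Rsad2, which encodes viperin, an enzyme that makes a chain-terminating nucleotide against viral RNA synthesis (chromosome 12, 26442746 to 26456452, minus strand), stood highest in the capillaries instead. Capillary cells had 91.3 CPM in Myh6-R404Q, 73.0 CPM in Prkag2-p.R299Q and 55.6 CPM in WT, and the next compared class averaged 12.6 CPM. Within the capillary class, the larger cluster, led by Mcf2l, Btnl9 and Aqp7, had 107, 78.1 and 68.3 CPM, and the smaller one had 34.7, 58.4 and 23.1 CPM, in the same order of genotypes. Rsad2 in capillaries was spread over 202, 92 and 169 cells. Ifit2, an RNA-binding effector, was also highest among the compared classes in capillary cells, with a mean of 32.1 CPM, and averaged 22.9 in lymphatic, 19.2 in fibroblast, 17.2 in mesothelial and 14.9 in endocardial cells. Its relatives Ifit1 and Ifit3, which bind foreign RNA ends together, were highest among the compared classes in the mesothelium, at 24.2 and 24.4 CPM on average.

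Among the compared classes, Ifi44 was higher in the endothelial classes and the mesothelium than in the rest. It averaged 39.6 CPM in capillary, 38.8 in lymphatic, 27.0 in endocardial and 31.2 in mesothelial cells, but 2.83 in macrophages, 3.38 in fibroblasts, 4.84 in pericytes and 1.31 in cardiomyocytes. Of the smaller classes, arterial, cycling and Schwann cells also carried it, at 38.7, 40.4 and 21.5 CPM on average. Samd9l, a translation repressor, averaged 158 CPM in mesothelial, 149 in capillary and 216 in B cells.

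Of the guanylate-binding proteins, GTPases that attack the compartments of intracellular pathogens, Gbp2 and Gbp3 were highest among the compared classes in the mesothelium. Gbp2 had 101 CPM in Myh6-R404Q, 120 CPM in Prkag2-p.R299Q and 69.1 CPM in WT mesothelial cells, against a mean of 36.3 CPM in capillary cells. Gbp3 averaged 38.9 CPM in the mesothelium and at most 20.1 CPM in another compared class. Igtp, a related immunity GTPase, averaged 19.8 CPM in the mesothelium, but it shares exons with Irgm2 on the same strand, so reads of the pair could not be split with certainty. Gbp7 was close in capillary (78.6 CPM) and mesothelial cells (74.1 CPM).

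The small and membrane proteins had their own order. Ifi27, a mitochondrial and nuclear envelope protein, averaged 138 CPM in mesothelial, 132 in lymphatic and 121 in fibroblast cells. Its neighbour Ifi27l2a had 135 CPM in Myh6-R404Q, 275 CPM in Prkag2-p.R299Q and 94.9 CPM in WT mesothelial cells, and no other compared class averaged above 72.8 CPM. Bst2, or tetherin, which holds budding virus at the cell surface, averaged 66.1 CPM in lymphatic and 61.0 in capillary cells. Lgals3bp, a secreted galectin-binding protein, averaged 29.1 CPM in the mesothelium, with 30.96 CPM in Myh6-R404Q, 43.8 CPM in Prkag2-p.R299Q and 12.6 CPM in WT.

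Among the regulators that work through ubiquitin or ADP-ribose, Trim30a and the Parp genes were highest of the compared classes in macrophages, while Usp18 and Isg15 were not. Trim30a, a ubiquitin ligase family member, had 264 CPM in Myh6-R404Q, 278 CPM in Prkag2-p.R299Q and 264 CPM in WT macrophages and averaged 75.4 CPM in mesothelial cells; it has a close copy, Trim30d, so its level is uncertain to that extent. Parp14, an ADP-ribosyltransferase, averaged 218 CPM in macrophages and 188 in capillary cells. Parp9 and Dtx3l form a complex and overlap head to head on opposite strands. Parp9 averaged 95.8 CPM in macrophages and 40.0 CPM in cardiomyocytes, and Dtx3l 27.0 CPM in macrophages and 28.0 CPM in capillary cells. Isg15, the ubiquitin-like tag, averaged at most 10.6 CPM in a compared class, and Usp18, which removes the tag and dampens the receptor, averaged 34.6 CPM in capillary cells, 32.2 in macrophages and 16.5 in mesothelial cells. The remaining members, Ifi35, Xaf1 and Rtp4, averaged between 5.91 and 53.3 CPM in the compared classes.

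**Figure D2:**
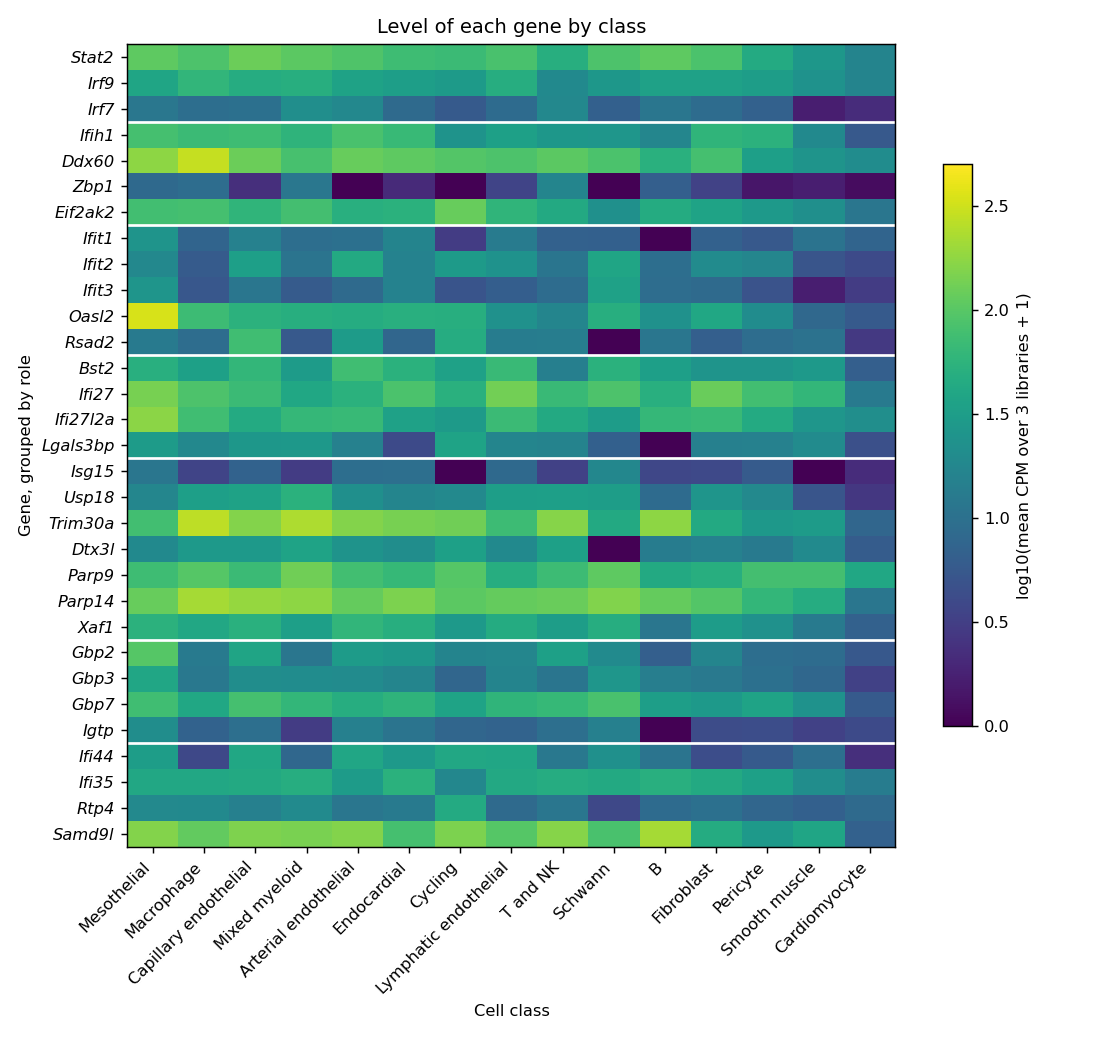
Level of each of the 31 genes (rows, grouped by role, white lines between groups) in each cell class (columns), the smaller classes included. Colour gives log10 of the mean CPM over the 3 libraries plus 1, from dark (0) to yellow. Oasl2 stands out in the mesothelial column, Rsad2 in the capillary column and Trim30a and Ddx60 in the macrophage column, while the cardiomyocyte column is dark for most genes.

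The mesothelial class was itself divided by its own markers, and the list differed between the subsets. One subset was high in Msln, Krt19 and Upk3b, markers of mature mesothelium, and the other was low in Msln. The high subset held 343 of the Myh6-R404Q, 200 of the Prkag2-p.R299Q and 62 of the WT cells, which is 27.3%, 39.7% and 8.36% of the cells placed in a subset, and the low subset held 912, 304 and 680. The size of the high subset depended on the processing: with doublets kept and cells clustered anew it held 10.7%, 16.9% and 1.68% in the same order, which is 14 cells in WT. The subsets were clusters of these same cells, and Lgals3bp was among the 10 leading genes of the high one, so their contrast is a description. In the high subset the 31 genes summed to 2867 CPM (interval 2773 to 2963) in Myh6-R404Q, 2777 (2668 to 2890) in Prkag2-p.R299Q and 2224 (2007 to 2459) in WT. In the low subset they summed to 1766 CPM (1712 to 1820), 1938 (1843 to 2036) and 1837 (1763 to 1912) in the same order. The high subset thus stood above the low one in all 3 libraries. After thinning each cell to 1000 UMIs the sums were 2496, 2918 and 2393 CPM in the high subset and 1784, 2058 and 1868 CPM in the low subset.

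Ifi27l2a, Ifit1 and Ifi44 were higher in the high subset in every library, with intervals that left out 1. Ifi27l2a had 283 CPM in the high and 61.8 in the low subset of Myh6-R404Q, 441 and 127 in Prkag2-p.R299Q, and 221 and 80.5 in WT. Ifit1 was 3.10-fold (2.03 to 4.81) higher in the high subset of Myh6-R404Q, 2.59-fold (1.22 to 5.97) in Prkag2-p.R299Q and 3.19-fold (1.29 to 7.26) in WT. Ifi44 was 2.52-fold, 2.38-fold and 2.40-fold higher in the same order. Other genes differed between subsets in the mutant libraries, while the WT subset of 62 cells left wide intervals. Gbp2 was 2.59-fold (2.10 to 3.21) higher in the high subset of Myh6-R404Q and 2.40-fold (1.77 to 3.31) of Prkag2-p.R299Q, against 1.23-fold (0.642 to 2.17) in WT. Bst2 was 3.48-fold higher in Myh6-R404Q cells and 1.90-fold in Prkag2-p.R299Q, with 1.45-fold (0.587 to 3.14) in WT.

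Oasl2 was high in both subsets. It had 433 CPM in the high and 325 in the low subset of Myh6-R404Q, 1.34-fold (1.19 to 1.49). It had 387 and 362 CPM in Prkag2-p.R299Q, 1.07-fold (0.911 to 1.25), and 244 and 295 CPM in WT, 0.826-fold (0.586 to 1.14), so its direction differed between the libraries. Ddx60, Trim30a and Usp18 differed by at most 1.27-fold between subsets, and all their intervals held 1; they were picked after their values had been seen.

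**Figure D3:**
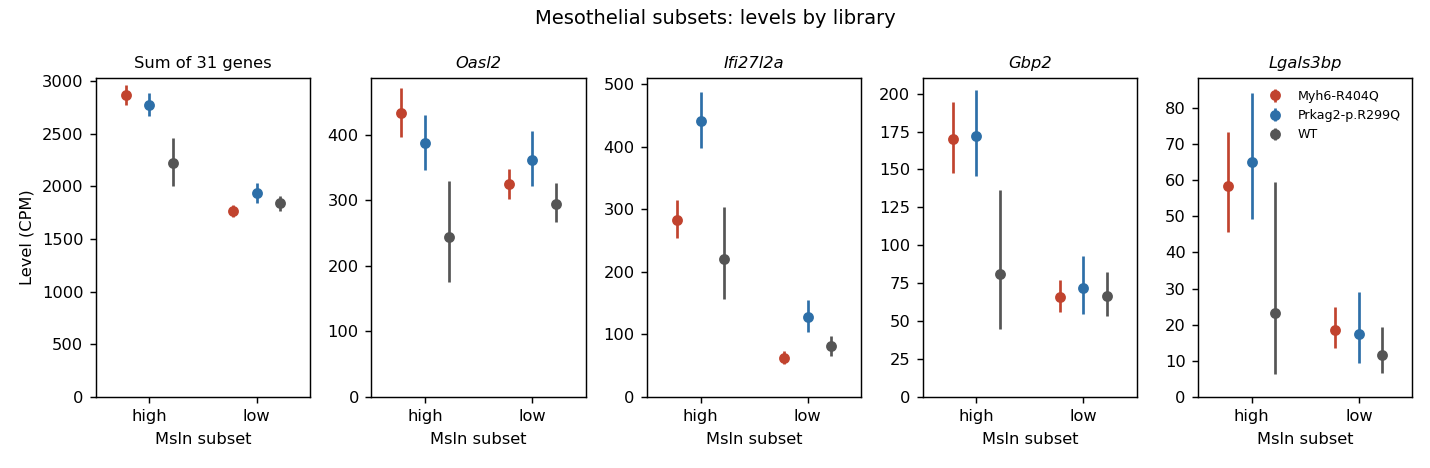
Levels (CPM, axes from 0) of the 31 genes together and of Oasl2, Ifi27l2a, Gbp2 and Lgals3bp in the Msln, Krt19 and Upk3b high subset and the Msln low subset of mesothelial cells. Each point is 1 library, Myh6-R404Q, Prkag2-p.R299Q or WT, with its exact Poisson 95% interval. Ifi27l2a reaches 283, 441 and 221 CPM in the high subset, against 61.8, 127 and 80.5 CPM in the low one, while Oasl2 is high in both.

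The study's title names hypertrophic cardiomyopathy mice and immune activation, and the design sets each mutant against WT. A gene was counted as measured in a class where its mean over the 3 libraries reached 5 CPM. It was counted as higher or lower where the ratio passed 1.5-fold and its interval left out 1. This rule compares single libraries, not genotypes. Both mutants were set against the same WT library, so an unusual WT library would touch both comparisons.

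In the mesothelium both mutants stood above WT for a minority of the genes. In Myh6-R404Q, 6 of 31 genes were higher (19.4%) and 0 lower, where 5.94% of all measured genes were higher and 4.53% lower. The median log2 ratio was 0.32 over the members and 0.04 over all measured genes. In Prkag2-p.R299Q, 6 of 31 were higher (19.4%) and 0 lower, where 5.21% of all genes were higher and 3.72% lower, and the medians were 0.20 and 0.01.

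Isg15 and Lgals3bp passed the rule in both mutants. Isg15 had 13.8 CPM (53 UMIs) in Myh6-R404Q, 14.8 (27 UMIs) in Prkag2-p.R299Q and 3.14 (5 UMIs) in WT. This was 4.39-fold (1.77 to 14.1) higher in Myh6-R404Q and 4.70-fold (1.79 to 15.6) higher in Prkag2-p.R299Q, on few molecules. Lgals3bp was 2.46-fold (1.53 to 4.18) higher in Myh6-R404Q and 3.48-fold (2.11 to 6.003) higher in Prkag2-p.R299Q.

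Ifit1, Ifit3, Rsad2 and Usp18 passed in Myh6-R404Q. Rsad2 had 26.3 CPM in Myh6-R404Q, 2.19 CPM in Prkag2-p.R299Q and 6.91 CPM in WT, a 3.80-fold (2.04 to 7.86) excess of Myh6-R404Q over WT. Its 101 UMIs lay in 41 cells, and the 5 richest cells held 51 of them, whereas the 4 and 11 UMIs of the other libraries each came from a different cell. Ifit3 had 32.3 CPM in Myh6-R404Q, 25.2 CPM in Prkag2-p.R299Q and 15.7 CPM in WT, 2.05-fold (1.33 to 3.30) higher in Myh6-R404Q. Ifit3 has a near copy, Ifit3b, and reads of the pair may be split. Ifit1 was 1.66-fold (1.10 to 2.56) and Usp18 1.96-fold (1.19 to 3.41) higher in Myh6-R404Q than in WT.

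Ifi27l2a, Bst2, Gbp2 and Igtp passed in Prkag2-p.R299Q. Ifi27l2a, at 275 CPM in Prkag2-p.R299Q against 94.9 in WT, was 2.89-fold (2.41 to 3.495) higher and rested on 502 and 151 UMIs. Bst2 was 1.92-fold (1.38 to 2.698), Gbp2 1.74-fold (1.38 to 2.21) and Igtp 1.82-fold (1.07 to 3.18) higher. Set directly against Myh6-R404Q, Prkag2-p.R299Q had more Ifi27l2a (2.03-fold, 1.79 to 2.30), with 3.18% of all genes higher, and less Rsad2 (0.0833-fold, 0.0223 to 0.220) and Usp18 (0.607-fold, 0.377 to 0.949), with 3.87% of all genes lower.

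The shares of the Msln, Krt19 and Upk3b high and the Msln low subset differed between the libraries, as given above, and their part in these mesothelial differences was not tested. The members were therefore also counted within each subset. In the low subset, 1 of 31 genes was higher and 0 lower in Myh6-R404Q (Usp18), with 5.69% and 4.78% of all genes, and the median was -0.03 against 0.04 over all genes. In Prkag2-p.R299Q 1 of 31 was higher (Ifi27l2a) and 0 lower, with 3.44% and 3.69% of all genes, and the median was 0.11 against 0.01. In the high subset, with 62 WT cells, 5 of 31 genes were higher and 0 lower in Myh6-R404Q (Ifit3, Isg15, Oasl2, Rsad2 and Gbp2), with 2.59% and 3.78% of all genes, and the median was 0.32 against 0.02. In Prkag2-p.R299Q 4 of 31 were higher and 0 lower (Oasl2, Ifi27l2a, Gbp2 and Lgals3bp), with 2.14% and 3.38% of all genes, and the median was 0.26 against -0.02. Isg15 there rested on 32 UMIs in Myh6-R404Q against 0 in WT, Rsad2 on 49 against 1 and Ifit3 on 66 against 3. Within the high subset, Oasl2 was 1.78-fold (1.30 to 2.49) higher in Myh6-R404Q and 1.59-fold (1.15 to 2.24) higher in Prkag2-p.R299Q than in WT. Gbp2 there was 2.09-fold (1.22 to 3.89) and 2.12-fold (1.23 to 3.97) higher. Ifit1 in the high subset had 48.6 CPM in Myh6-R404Q, 32.0 CPM in Prkag2-p.R299Q and 52.3 CPM in WT, and the intervals of its ratios to WT held 1. Thinning every cell to 1000 UMIs, which leaves fewer UMIs and wider intervals, left 1 of 31 genes higher in Myh6-R404Q (Lgals3bp, with 4.76% of all genes) and 4 in Prkag2-p.R299Q (with 3.61% of all genes), at medians of 0.20 and 0.43.

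**Figure D4:**
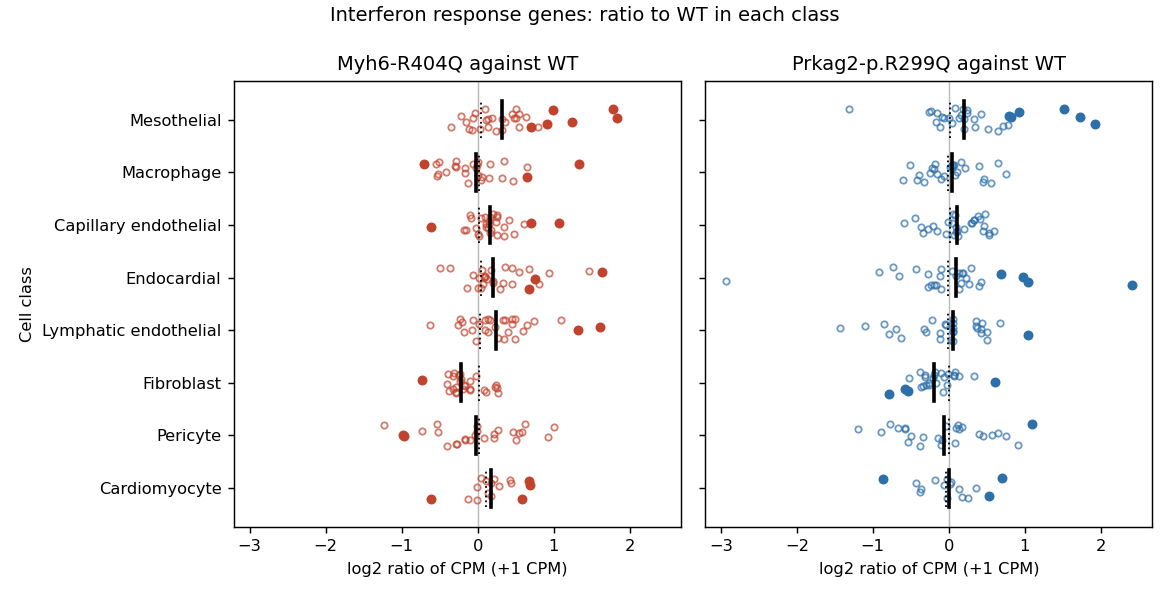
Log2 ratio of each measured member in each compared class for Myh6-R404Q against WT and Prkag2-p.R299Q against WT (pseudocount 1 CPM). Each point is 1 gene, filled where it passed 1.5-fold with an interval that left out 1; the solid bar is the members' median and the dotted bar the median of all measured genes. Mesothelial members lie mostly to the right of 0, with medians of 0.32 and 0.20, and fibroblast members mostly to the left, with medians of -0.22 and -0.19.

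In the endothelium the shifts were small and involved few genes. In capillary cells of Myh6-R404Q, Rsad2 was 1.64-fold (1.37 to 1.98) and Ifit3 2.28-fold (1.36 to 3.91) higher and Rtp4 lower at 0.636-fold (0.407 to 0.978), that is 2 of 30 genes higher and 1 lower, where 3.78% and 4.66% of all genes were. In Prkag2-p.R299Q capillary cells 0 of 30 were higher or lower, with 3.70% and 4.06% of all genes. The Rsad2 excess of Myh6-R404Q rested on 277 UMIs, of which the 5 richest cells held 8.66%, and did not pass at 1000 or more UMIs per barcode. The Rtp4 call was lost with doublets kept. With cells thinned to 1000 UMIs, 4 of 30 genes were higher in Myh6-R404Q (Ifit1, Ifit3, Oasl2 and Rsad2), with 4.015% of all genes. In Prkag2-p.R299Q 2 of 30 were then higher (Oasl2 and Ifi27l2a), with 3.325% of all genes.

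Endocardial cells line the chambers. In Myh6-R404Q 3 of 29 genes were higher and 0 lower, with 4.6% and 4.51% of all genes. Ifi44 led with 46.9 CPM in Myh6-R404Q, 19.7 CPM in Prkag2-p.R299Q and 14.4 CPM in WT, 3.25-fold (1.77 to 6.42) higher in Myh6-R404Q than in WT, followed by Oasl2 at 1.70-fold (1.13 to 2.60) and Bst2 at 1.62-fold (1.05 to 2.57). In Prkag2-p.R299Q 4 of 29 were higher and 0 lower, with 3.32% and 4.75% of all genes. These were Bst2 at 2.10-fold (1.27 to 3.502), Xaf1 at 1.99-fold (1.20 to 3.34), Ifih1 at 1.62-fold (1.05 to 2.49) and Isg15 with 9 UMIs in Prkag2-p.R299Q against 2 UMIs in WT, 7.27-fold (1.51 to 69.2). With cells thinned to 1000 UMIs, which leaves fewer UMIs and drops shallower cells, Isg15 was the 1 gene that passed in each mutant. The calls of Ifi44, Oasl2, Bst2, Xaf1 and Ifih1 were then lost. With doublets kept the Oasl2 call was lost.

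In lymphatic cells of Myh6-R404Q, Oasl2 had 40.7 CPM against 13.2 in Prkag2-p.R299Q and 12.6 in WT, 3.22-fold (1.66 to 6.49) higher than WT, and Rsad2 was 2.67-fold (1.18 to 6.30) higher. These were 2 of 30 genes higher and 0 lower, with 4.30% and 3.93% of all genes. In Prkag2-p.R299Q 1 of 30, Ifit2, was higher at 2.12-fold (1.05 to 4.26) and 0 were lower, with 3.08% and 4.52% of all genes. The Rsad2 and Ifit2 calls were lost with thinning. Ifi44, Parp9 and Ddx60 then passed beside Oasl2 in Myh6-R404Q, as 4 of 29 genes higher, with 3.36% of all genes. All these counts were small, with 28 UMIs behind the highest of the lymphatic Oasl2 values.

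Fibroblasts went the other way as a group. Of 27 measured genes 6 had a log2 ratio above 0 in each mutant, and the median was -0.22 in Myh6-R404Q cells and -0.19 in Prkag2-p.R299Q, while the median of all genes was 0.02 in Myh6-R404Q cells and -0.0012 in Prkag2-p.R299Q. Single genes rarely passed: in Myh6-R404Q 0 were higher and 1 lower, with 4.85% and 5.0% of all genes, and in Prkag2-p.R299Q 1 was higher and 3 lower, with 3.63% and 6.30% of all genes. Irf9 passed in both. It had 26.7 CPM in Myh6-R404Q, 29.9 CPM in Prkag2-p.R299Q and 45.1 CPM in WT fibroblasts, so it was lower at 0.592-fold (0.487 to 0.719) in Myh6-R404Q cells and 0.662-fold (0.548 to 0.798) in Prkag2-p.R299Q cells. Irf9 overlaps exons of Rnf31 on the same strand, so some of its UMIs may belong there. Ifi27l2a was 1.54-fold (1.35 to 1.76) higher in Prkag2-p.R299Q, while Rsad2 and Rtp4 were lower; the Ifi27l2a call was lost with thinning and with doublets kept, the Rtp4 call with thinning, and the Rsad2 call with both.

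The fibroblast class was made of 3 clusters whose shares differed between libraries: one held 33.5% of Myh6-R404Q, 15.0% of Prkag2-p.R299Q and 49.5% of WT fibroblasts. The members' median within each cluster ran from -0.19 to -0.13 in Myh6-R404Q and from -0.26 to -0.15 in Prkag2-p.R299Q. Irf9 passed as lower in every cluster in Myh6-R404Q. In Prkag2-p.R299Q it passed only in the cluster led by Fbn2, with 22.6 CPM against 41.7 in WT. It had 38.4 against 50.4 CPM and 32.8 against 41.5 CPM in the other clusters. A list of 11 heat shock genes also stood lower in mutant fibroblasts, with a median log2 ratio of -0.81 in Myh6-R404Q cells and -0.44 in Prkag2-p.R299Q, and its part in the result was not tested.

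In macrophages, which carried high levels, few genes passed. In Myh6-R404Q 2 of 27 genes were higher and 1 lower, with 6.47% and 6.67% of all genes: Gbp3 was 2.75-fold (1.44 to 5.49) and Ifi35 1.59-fold (1.14 to 2.25) higher, and Bst2 was lower at 0.605-fold (0.406 to 0.889). In Prkag2-p.R299Q 0 of 27 were higher or lower, with 3.78% and 7.97% of all genes. The Gbp3 and Bst2 calls were lost with thinning, and with doublets kept the Ifi35 call was lost and Ifit3, Rsad2 and Gbp2 passed as higher in Myh6-R404Q. In pericytes, the cells that wrap capillaries, Myh6-R404Q had 0 of 26 higher and 2 lower, with 3.79% and 3.31% of all genes: Ddx60 at 0.493-fold (0.263 to 0.885) on 17 and 42 UMIs, and Trim30a at 0.4998-fold (0.261 to 0.915) on 16 and 39 UMIs. Both calls were lost with thinning and with doublets kept. In Prkag2-p.R299Q pericytes Ifi27l2a was higher at 2.18-fold (1.33 to 3.598), as 1 of 26, with 0 lower and with 3.38% and 3.90% of all genes.

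Cardiomyocytes had 16 measured members, all at low levels. In Myh6-R404Q 3 were higher and 1 lower, where 10.9% and 3.00% of all genes were: Ifit1 at 1.73-fold (1.18 to 2.57), Ifi27l2a at 1.64-fold (1.30 to 2.07), Ifi27 at 1.55-fold (1.17 to 2.06), and Irf9 at 0.636-fold (0.496 to 0.811). In Prkag2-p.R299Q 2 were higher and 1 lower, with 4.02% and 3.87% of all genes: Ifi27l2a at 1.67-fold (1.33 to 2.09), Dtx3l at 1.54-fold (1.01 to 2.37) and Irf9 at 0.530-fold (0.413 to 0.677). Irf9 had 13.6 CPM in Myh6-R404Q, 11.4 CPM in Prkag2-p.R299Q and 21.5 CPM in WT cardiomyocytes. It thus passed in both mutants in cardiomyocytes as in fibroblasts, but not with thinning in Myh6-R404Q cardiomyocytes. In Prkag2-p.R299Q fibroblasts it did not pass at 1000 or more UMIs per barcode, nor in every cluster. The higher calls depended on the cells in the class: with 1000 or more UMIs per barcode, with doublets kept or with the interferon genes allowed in the clustering, Ifit1 alone was higher in Myh6-R404Q and 0 genes were in Prkag2-p.R299Q. The same held in the main cardiomyocyte cluster on its own, with 10.85% and 3.92% of all genes higher. With thinning 2 of 19 genes were higher in Myh6-R404Q (Oasl2 and Gbp2, with 9.12% of all genes). In Prkag2-p.R299Q 2 of 19 were then higher (Ifi27l2a and Dtx3l, with 4.62% of all genes).

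A shallow cluster of the cardiomyocyte class, with 314 Myh6-R404Q, 280 Prkag2-p.R299Q and 425 WT cells, held more of the list than the main one. Its members summed to 981 CPM in Myh6-R404Q, 886 CPM in Prkag2-p.R299Q and 545 CPM in WT, against 237, 198 and 208 CPM in the main cluster. In the shallow cluster Ifi27l2a had 186, 270 and 89.7 CPM and Ifi27 had 87.5, 64.1 and 33.04 CPM, in the same order. Among barcodes with at least 1000 UMIs, clustered anew, a cardiomyocyte cluster sharing leading genes with it (Myh14, Nppb and Pgam2) held 135, 129 and 165 cells. Free RNA from other cells could not be told apart from the shallow cluster's own RNA.

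The mutants were also set against each other. Over the 8 compared classes together, 4 pairs of a gene and a class were higher and 17 lower in Prkag2-p.R299Q than in Myh6-R404Q, but with cells thinned to 1000 UMIs 7 were higher and 8 lower. Counts of members higher and lower, beside the shares of all genes, were 1 and 2 in mesothelial cells (3.18% and 3.87%), 0 and 1 in capillary cells (2.36% and 2.52%), and 0 and 2 in endocardial cells (2.68% and 3.87%). They were 0 and 4 in lymphatic cells (2.19% and 3.58%), 1 and 1 in fibroblasts (2.58% and 4.52%), and 2 and 4 in macrophages (3.01% and 5.53%). They were 0 and 0 in pericytes (2.21% and 3.72%) and 0 and 3 in cardiomyocytes (1.74% and 9.07%). Rsad2 accounted for 4 of the 17. It had 0 UMIs in Prkag2-p.R299Q and 19 in Myh6-R404Q endocardial cells, 2 and 17 in lymphatic cells, 18 and 44 in fibroblasts, and 4 and 101 in mesothelial cells. Ifi27l2a accounted for 3 of the 4 higher ones: it was 2.03-fold higher in mesothelial cells, 1.81-fold (1.40 to 2.37) in macrophages and 1.57-fold (1.36 to 1.80) in fibroblasts. In macrophages Gbp2, Gbp3 and Gbp7 were lower in Prkag2-p.R299Q than in Myh6-R404Q, at 0.448-fold, 0.376-fold and 0.635-fold.

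The machinery upstream of these genes was also counted. Interferons themselves were close to absent: the 10 listed interferon genes summed to 3 UMIs in Myh6-R404Q, 9 UMIs in Prkag2-p.R299Q and 10 UMIs in WT macrophages, and to 0, 0 and 0 in capillary cells. The mesothelium had the most Ifnar2, the signalling chain of the type I receptor, at a mean of 206 CPM against at most 130 in another compared class. It also had the most Ifnlr1, the interferon lambda receptor of epithelia, at 17.0 CPM, with 8.67 CPM in cardiomyocytes and at most 5.36 CPM in the other compared classes. None of the 6 receptor genes passed in the mesothelium of a mutant against WT (5.94% and 4.53% of all genes higher and lower for Myh6-R404Q, 5.21% and 3.72% for Prkag2-p.R299Q).

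Socs3, a brake on Stat signalling, was lower in the mutants. It had 13.3 CPM in Myh6-R404Q, 18.1 CPM in Prkag2-p.R299Q and 28.9 CPM in WT mesothelial cells, and 5.08, 5.78 and 15.7 CPM in fibroblasts. In capillary cells it had 5.94, 5.75 and 15.5 CPM, and in lymphatic cells 11.6, 9.42 and 37.1 CPM, in the same order. All these pairs passed the rule. Of all genes, 4.53% and 3.72% were lower in mesothelial cells of Myh6-R404Q and Prkag2-p.R299Q, and 5.0% and 6.30% in fibroblasts. The shares were 4.66% and 4.06% in capillary cells and 3.93% and 4.52% in lymphatic cells. In the Msln low subset, Socs3 was the 1 lower gene of 3 measured brakes in each mutant, beside 4.78% and 3.69% of all genes. Stat3 was also lower in fibroblasts, with 225 CPM in Myh6-R404Q, 239 CPM in Prkag2-p.R299Q and 399 CPM in WT. The heat shock list stood lower beside them in capillary cells, with medians of -0.53 in Myh6-R404Q cells and -0.62 in Prkag2-p.R299Q, and its part in the Socs3 result was not tested.

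Interferon gamma targets were counted in the mesothelium as well. Of 11 measured genes of that list, 6 were higher and 0 lower in Myh6-R404Q, with a median log2 ratio of 0.61, where 5.94% and 4.53% of all genes were higher and lower. In Prkag2-p.R299Q 2 were higher and 0 lower, with a median of 0.53, where 5.21% and 3.72% of all genes were. Serping1, the inhibitor of complement C1, had 401 CPM in Myh6-R404Q, 471 CPM in Prkag2-p.R299Q and 227 CPM in WT, that is 1.77-fold (1.58 to 1.99) and 2.08-fold (1.83 to 2.35) higher in these mutants. Gbp4 was 2.76-fold (1.496 to 5.57) higher in Myh6-R404Q, and Tgtp2, an immunity GTPase, was 3.73-fold (1.48 to 12.0) higher on 45 and 5 UMIs. Within the Msln low subset 1 of 10 measured genes of the list was higher in each mutant, Gbp8 (5.69% of all genes for Myh6-R404Q, 3.44% for Prkag2-p.R299Q), and the medians were 0.42 in Myh6-R404Q cells and 0.21 in Prkag2-p.R299Q.

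Of 43 other type I targets measured in the mesothelium, 4 were higher and 1 lower in Myh6-R404Q, beside 5.94% and 4.53% of all genes, and 6 were higher and 2 lower in Prkag2-p.R299Q, beside 5.21% and 3.72%, with a median of 0.10 in each. In percent, 9.30% and 14.0% of this list were higher. Cxcl10, a chemokine that draws T cells, had 83 UMIs in 31 Myh6-R404Q mesothelial cells, 7 UMIs in 7 Prkag2-p.R299Q cells and 0 in WT. Taking 3 UMIs as the limit that 0 allows in the WT class (1.89 CPM), Cxcl10 stood at 11.5 times that limit in Myh6-R404Q and 2.03 times in Prkag2-p.R299Q. These ratios leave out the counting error of the mutants' own UMIs, so they are not lower bounds. The 5 richest Myh6-R404Q cells held 42 of the 83 UMIs. Ifi204, a DNA-binding member of the p200 family, was 2.35-fold (1.67 to 3.38) higher in Myh6-R404Q and 1.85-fold (1.26 to 2.77) in Prkag2-p.R299Q. Ifitm3, which blocks virus entry, was 2.37-fold (2.03 to 2.77) higher in Prkag2-p.R299Q.

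Counting members cell by cell showed whether the signal lay in few cells or many. Each cell was thinned to 1000 UMIs, and shallower cells were left out. Mesothelial cells then had on average 1.78 different members in Myh6-R404Q, 2.15 members in Prkag2-p.R299Q and 1.72 members in WT. At least 4 members were found in 10.9% of Myh6-R404Q, 17.3% of Prkag2-p.R299Q and 11.2% of WT mesothelial cells, against 48.6%, 62.1% and 32.8% without thinning. The gap between Myh6-R404Q and WT seen without thinning was not seen with it. In capillary cells the thinned shares were 10.8%, 9.38% and 8.42%, in macrophages 8.90%, 11.4% and 8.86%, and in fibroblasts 1.91%, 2.49% and 3.38%. Cardiomyocytes had 0.251%, 0.293% and 0.162%, in the same order. The part of free RNA in these shares was not tested in any class.

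**Figure D5:**
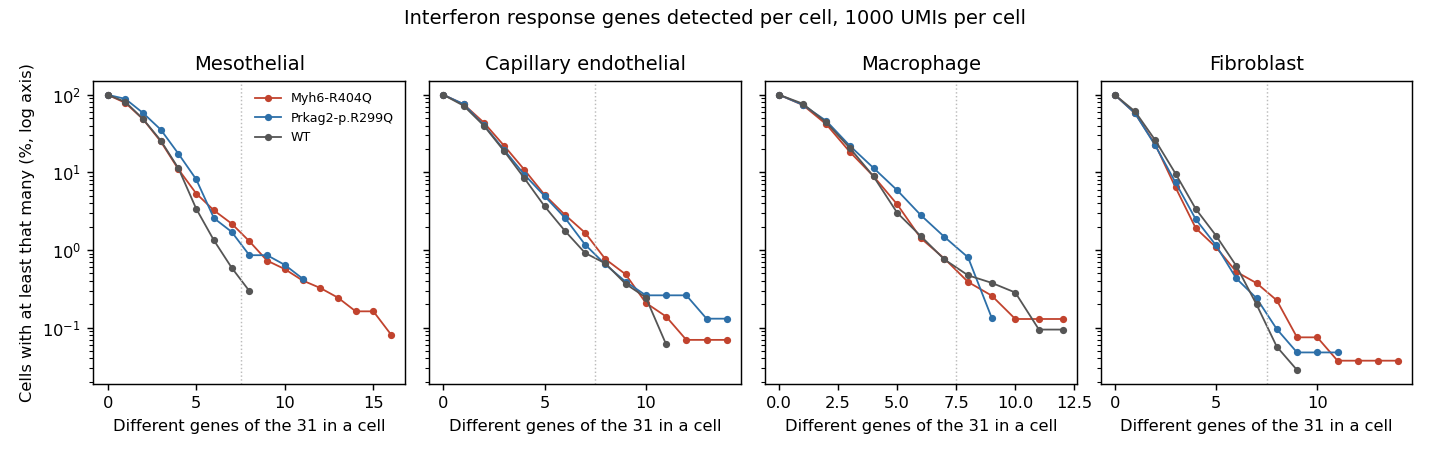
Share of cells (percent, log axis) with at least the given number of different members, in cells thinned to 1000 UMIs, for 4 classes with 1 line per library; the dotted line marks the limit of 8 members used below. The lines fall steeply, and a thin tail reaches 16 members in a Myh6-R404Q mesothelial cell, against 11 members in Prkag2-p.R299Q and 8 members in WT.

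A few cells in every library held many members at once. A limit of 8 members, chosen after the distribution had been seen, left 46 of 9046 cells of the named classes in Myh6-R404Q (0.509%), 21 of 6026 in Prkag2-p.R299Q (0.349%) and 23 of 10830 in WT (0.212%). It cuts a continuous tail: 38, 18 and 15 further cells held 7 members. In the mesothelium these cells were 16 of the Myh6-R404Q, 4 of the Prkag2-p.R299Q and 2 of the WT cells, and in capillary cells 11, 5 and 11. In the endocardial class there were 5, 1 and 0, and by the exact binomial interval 0 in WT allows a share of up to 0.866%.

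The cells so chosen were described with genes outside the list. Over all libraries, 50 other type I targets summed to 12860 CPM in the chosen mesothelial cells and 2641 CPM in the other mesothelial cells, 4.87-fold higher, with 37 of 49 detected genes above. In capillary cells the same list had 12370 and 3152 CPM, 3.93-fold, with 34 of 49 genes above. A list of 13 interferon gamma targets was 5.25-fold (3.99 to 6.79) higher in the chosen mesothelial cells. In the chosen capillary cells it was 5.265-fold (4.11 to 6.65) higher. Heat shock genes stood at 1.06-fold (0.653 to 1.62) in the chosen mesothelial and 0.867-fold (0.571 to 1.26) in the chosen capillary cells. Interferon genes had 0 UMIs in the chosen mesothelial and capillary cells. They had 1 UMI in the 2356 other mesothelial and 0 in the 3821 other capillary cells, so the few chosen cells could not show a difference. The chosen cells had a median of 7 UMIs of the mesothelial list against 8 in the other mesothelial cells, 8 UMIs of the capillary list against 9 in the other capillary cells, and 3 UMIs of the fibroblast list against 4 in the other fibroblasts. The 14 chosen macrophages had a median of 4.5 UMIs of the macrophage list, against 9 in the other macrophages. In the chosen mesothelial and capillary cells the median of the macrophage list was 0 UMIs, as in the other cells of these classes. The median of the cardiomyocyte list was 5 UMIs in chosen against 4 in other mesothelial cells, and 13 against 9 in capillary cells. It was 8 against 6 in macrophages and 3.5 against 5 in fibroblasts. In the mesothelium the chosen cells had 727 CPM of Ifi44 against 19.5 in the other cells, as values that the choice of cells partly fixes. Without the chosen cells, 3 members (Isg15, Rsad2 and Lgals3bp) were still higher in Myh6-R404Q than in WT mesothelium, with a median of 0.06 and 6.01% of all genes higher, and 6 in Prkag2-p.R299Q, with a median of 0.11 and 5.22% of all genes higher.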

How the data were processed

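The deposited UMI counts per gene and barcode, which per the submitters' processing notes the authors made with Cell Ranger 7.0.1 on mm10, covered 3 libraries made with a 10x 3′ kit. Whether intronic reads were counted is not given in the sources used here. Barcodes under 500 UMIs or 300 genes, or with over 20% mitochondrial UMIs, were dropped. Scrublet (scanpy 1.11.5) called 16.63% of Myh6-R404Q, 13.97% of Prkag2-p.R299Q and 17.76% of WT barcodes as doublets, and these were removed. Free RNA was not removed. The kept cells held 26066687, 22699292 and 28186934 UMIs in that order.

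Cells were clustered with leidenalg 0.10.2 at resolution 0.8 on 30 principal components of 2000 variable genes. The members and the other interferon lists were left out of the variable genes, and no correction between libraries was made. Clusters were named from marker lists. Counts from the deposited matrices were summed per class and library and expressed as CPM. Ratios have exact conditional binomial intervals, levels exact Poisson intervals and shares exact binomial intervals, at 95% (scipy 1.17.1). Log2 ratios used a pseudocount of 1 CPM. The counting rule was tested on simulated data.

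The members and lists were chosen with earlier results of these data known. Genes named in a comparison are those past 2-fold and the 6 of highest CPM in a class; other genes were named after their values had been seen. Alternatives changed depth, the UMI minimum, doublets, the clustering genes, the level minimum and the scaling.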

Additional observations from a re-analysis of the deposited data

Results flagged for a closer look

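Bst2, which encodes tetherin, was higher in one class and lower in another within the same comparison. In endocardial cells it had 54.1 CPM in Myh6-R404Q against 33.3 CPM in WT, a log2 ratio of 0.68 (1.62-fold, interval 1.05 to 2.57). In macrophages it had 24.6 CPM in Myh6-R404Q against 40.6 CPM in WT, a log2 ratio of -0.70 (0.605-fold, 0.406 to 0.889). Both calls were lost with cells thinned to 1000 UMIs. The difference between the classes was not tested, since there was 1 library per genotype.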

How the results depend on the processing

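No paired analysis was possible because each genotype had 1 library. No replicate could be left out for the same reason, so the libraries' own deviations cannot be told apart from the genotype. Across the alternatives, 148 of 150 medians over the members stayed within the counting interval of the middle-ranked gene or genes. That is not an interval of the median itself, so it says little about how stable the medians were. Of the 150 medians 19 changed sign, and for 18 of those the middle-gene interval held 0. All 16 ratios of the shares of cells with several members stayed within their interval, 51 of 60 summed levels within 1 SD, and 42 of 54 counts within 1.5 times. The alternatives on the Msln low and Msln high subsets, on single clusters and on cells with 8 or more members were chosen after seeing the data.

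The summed level with cells thinned to 1000 UMIs was 1271 CPM in B cells, 270 CPM (270.4) in cardiomyocytes and 719 CPM (719.1) in pericytes. With at least 1000 UMIs per barcode it was 1346 CPM in arterial and 1256 CPM in B cells. With doublets kept it was 1717 CPM in macrophages, 930.1 in pericytes, 1029 in Schwann cells and 725.2 in smooth muscle. The ratio of the high to the low mesothelial subset in Myh6-R404Q was 1.40 with thinning and 1.36 with doublets kept, and in WT 1.66 with doublets kept.

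In the mesothelium, the median of Myh6-R404Q against WT turned to -0.0311 in the Msln low subset. The count of 6 higher members in Myh6-R404Q fell to 1 with thinning, 3 at a minimum of 20 CPM, 1 in the Msln low subset and 3 without cells with 8 or more members. The count of 6 in Prkag2-p.R299Q fell to 1 in the Msln low subset. The median of Prkag2-p.R299Q against WT in cardiomyocytes was 0.53 at a minimum of 20 CPM, where few members were left. Over the 8 classes, with 16 to 31 measured members each, Myh6-R404Q against WT had 18 pairs higher and 6 lower. Of all genes, 3.78% to 10.9% were higher and 3.0% to 6.67% lower, depending on the class. Lower pairs numbered 3 with thinning and 3 with doublets kept, and higher pairs 10 at a minimum of 20 CPM. That minimum left 2 to 24 members per class. Prkag2-p.R299Q against WT had 15 higher and 4 lower, where 3.08% to 5.21% of all genes were higher and 3.72% to 7.97% lower, by class. At a minimum of 20 CPM 1 was lower. Prkag2-p.R299Q against Myh6-R404Q had 4 higher and 17 lower, where 1.74% to 3.18% of all genes were higher and 2.52% to 9.07% lower, by class. These counts became 7 and 8 with thinning, and 6 were lower at a minimum of 20 CPM. Thinning and the higher minimum leave fewer UMIs or genes; the cause of the other shifts was not tested.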
